A study of Mus musculus with 18 samples.

Results

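Calcium handling genes of the sarcoplasmic reticulum were followed in tibialis anterior (TA) muscle of mice with 5 models of cancer cachexia. The 10 genes were taken by name from a list, with no cut-off on their values. They were Cacna1s and Ryr1 (voltage sensor and release channel), Jph1 (junction), Atp2a1 and Atp2a2 (fast and slow calcium pumps), Sln (pump inhibitor), Casq1 and Casq2 (fast and slow store proteins), Pvalb (cytosolic buffer) and Dhrs7c (a reticulum enzyme). None of the 10 was lost to the low-count filter, which left 16089 genes to test. Poly(A) RNA was sequenced in 18 libraries of 9 groups, with n = 2 libraries, labelled biological replicates, in every group. LLC tumour mice (C57BL/6) were given LLC lung carcinoma cells intramuscularly, and LLC controls PBS. KPCML1 tumour mice (1000 cells) and KPC tumour mice (50000 cells), both C57BL/6, had orthotopic injections of those tumour lines, and both were set against the same C57BL/6 controls injected with Matrigel only. C26 tumour mice, of strain CD2F1, carried C26 colon carcinoma cells under the skin, and C26 controls of that strain were given PBS. KPP tumour mice (C57BL/6) carried a genetic tumour model induced with tamoxifen, and KPP controls were labelled as that model without tumour. The muscles were taken at endpoint. The muscle that received LLC cells, the alleles and the Cre driver of KPP, whether its controls had tamoxifen, and the age and sex of the mice are stated in none of the labels used here.

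In a muscle fibre the voltage sensor of the transverse tubule opens the release channel of the facing sarcoplasmic reticulum at a junction called the triad. Calcium then flows out of the store, where calsequestrin holds it, and sets off contraction. The SERCA pump returns it for relaxation, with sarcolipin as a brake on the pump and parvalbumin as a buffer in the cytosol of fast fibres. Fast fibres mainly use the products of Atp2a1 and Casq1, slow fibres and heart that of Atp2a2, and Casq2 is the calsequestrin of heart and is also made in slow fibres.

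The libraries held 22546541 to 36673780 fragments, and the 10 genes together 2.70 to 5.39% of them. CPM, counts relative to the normalised size of the library, are compared within a gene. TPM also take account of transcript length and are compared between genes. A change is the log2 fold change of tumour over control, given ± its fitted standard error. It was called where the adjusted p of edgeR's quasi-likelihood test (Benjamini-Hochberg over all tested genes) lay under 0.05. The summed CPM of 8 fast myofibre markers was 59950 to 137900 over the libraries and that of 7 slow myofibre markers 27.1 to 184. These sums are of different genes and take no account of transcript length. In whole muscle, fewer cells of a type and less RNA per cell cannot be told apart.

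By TPM the 10 genes spanned a wide range. Atp2a1 had a median of 9448 TPM over the 18 libraries and Pvalb one of 9358 TPM, and their ranges overlapped. Casq1 followed with a median of 688 TPM, then Ryr1 with 301, Cacna1s with 218 and Dhrs7c with 186. Of the Cacna1s TPM, 19.6 to 64.5% (median 37.0%) was in a processed transcript of 1001 bases, so its place rests in part on that transcript. Jph1 had a median of 73.4 TPM, Casq2 of 20.5, Atp2a2 of 7.29 and Sln of 2. Neighbours in this order had overlapping ranges over the libraries, apart from Jph1, whose lowest value was 49.2 TPM, and Casq2, whose highest was 34.2 TPM.

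In this paragraph a gene rose or fell where the main edgeR fit called it. Casq1, the main calsequestrin of fast fibres, was the 1 gene of the 10 called in all 5 models. It fell by 1.37 to 3.44 on the log2 scale. Pvalb tumour libraries also lay below their controls in all 5 models, but Pvalb was called only in C26 and KPP, where it fell. Dhrs7c fell in LLC, C26 and KPP, and Jph1 fell in C26. Ryr1 rose in LLC, KPC and KPP, Atp2a1 in KPC and KPP, Atp2a2 in LLC and C26, and Sln in C26 and KPP. Casq2 and Cacna1s were not called in any model by the main edgeR fit, where each had an unadjusted p under 0.05 in 1 model. Some alternative edgeR settings called them, as given below. DESeq2, fitted here to all 18 libraries as an alternative, called Cacna1s in C26 alone and Casq2 in none.

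**Figure D1:**
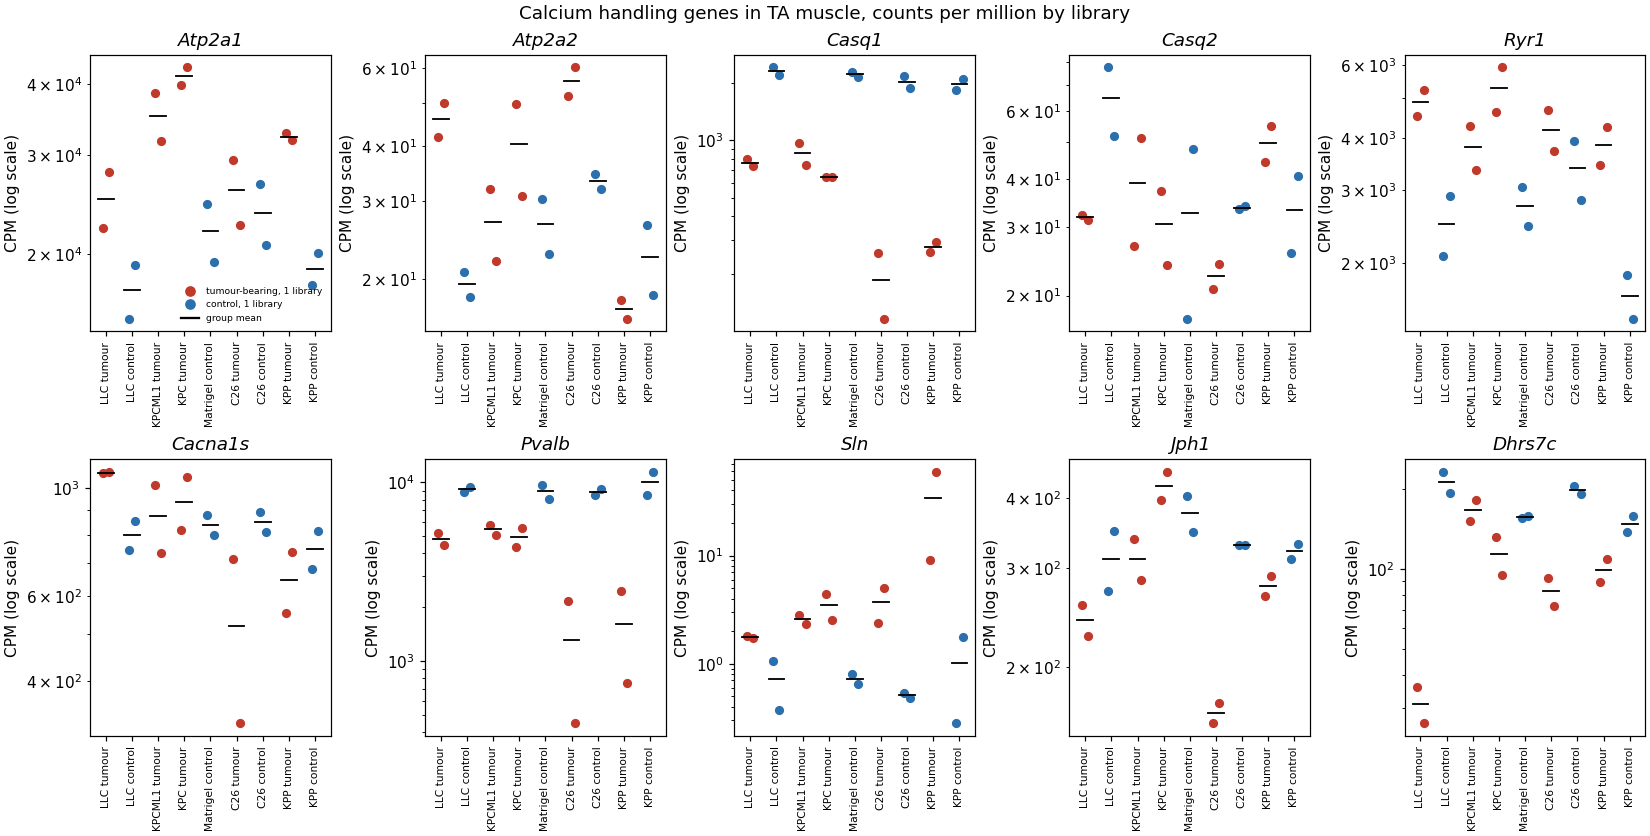
CPM (log scale) of each gene in every library, with points for libraries and a line for the group mean, tumour groups in red and controls in blue, and KPCML1 and KPC beside their shared Matrigel controls. Every Casq1 tumour point lies between 116 and 971 CPM, below all controls, which start at 1841 CPM, and the Sln points lie highest in the KPP tumour group.

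In LLC, 4 of the 10 genes were called, 2 higher and 2 lower, where 13.6% of all tested genes were called (7.39% higher and 6.24% lower). In KPCML1 1 gene was called, lower, where 8.53% of all genes were called (4.15% higher and 4.38% lower). In KPC 3 genes were called, 2 higher and 1 lower, where 29.1% of all genes were called (15.3% higher and 13.7% lower). The KPCML1 and KPC counts are near the share over all genes. In C26 6 genes were called, 2 higher and 4 lower, where 21.3% of all genes were called (11.5% higher and 9.8% lower). In KPP 6 genes were called, 3 higher and 3 lower, where 36.7% of all genes were called (17.4% higher and 19.3% lower).

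The libraries of a tumour group and its controls did not overlap for 10 of the 10 genes in LLC, where 63.7% of all genes did not overlap, and for 6 in KPCML1, where it was 60%. They did not overlap for 7 genes in KPC (65.4% of all genes), 8 in C26 (65.8%) and 9 in KPP (64.1%). The median change of the 10 genes was 0.03 in LLC, 0.07 in KPCML1, 0.16 in KPC, -0.65 in C26 and -0.21 in KPP, while that of all genes lay between -0.04 and 0.04. For the mean of the 5 tumour effects, 8 of the 10 genes were called, 4 higher and 4 lower, where 50.8% of all genes were called (25.2% higher and 25.7% lower). KPC and KPCML1 share their controls, so their values below are given side by side and are not independent of each other.

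**Figure D2:**
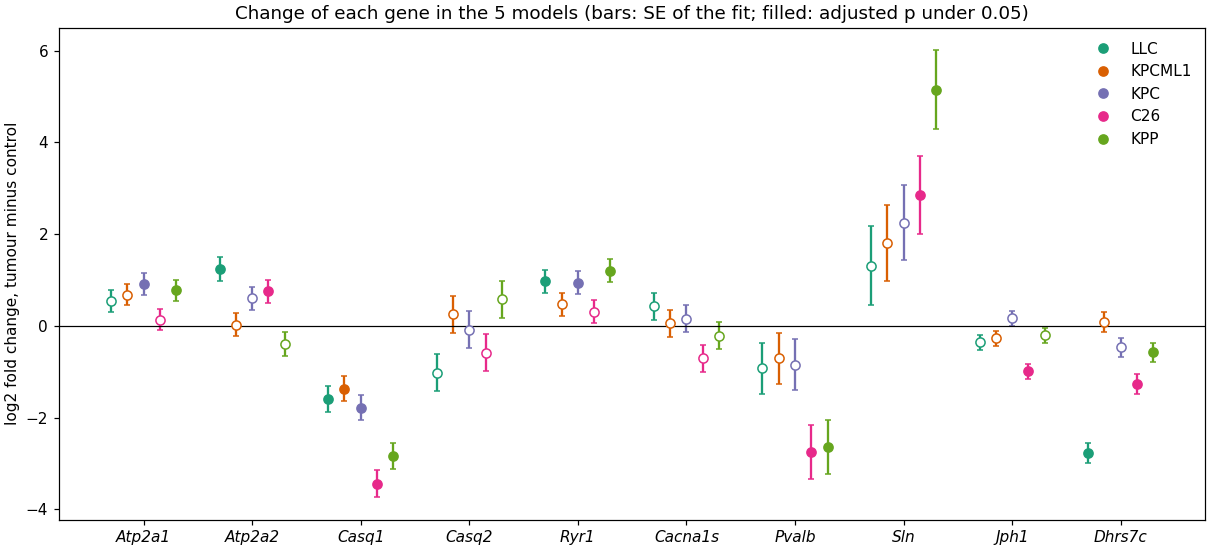
Log2 fold change, tumour minus control, of each gene in the 5 models, where points are the fitted change, bars its standard error and filled points have an adjusted p under 0.05. Casq1 has filled points in all 5 models, from -3.44 in C26 to -1.37 in KPCML1, and Sln has the highest point, 5.15 in KPP.

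Of the release genes, Ryr1 rose in 3 models, Jph1 fell in C26 and Cacna1s was not called by the main edgeR fit. Ryr1, the ryanodine receptor of the reticulum (chromosome 7, 29003344 to 29125179, minus strand, build mm10), had 4533 and 5219 CPM in LLC tumour libraries, against 2084 and 2901 CPM in LLC controls. It had 4269 and 3350 CPM in KPCML1 tumour libraries and 4626 and 5915 CPM in KPC tumour libraries, against 3050 and 2455 CPM in Matrigel controls. It had 4666 and 3724 CPM in C26 tumour libraries, against 3942 and 2836 CPM in C26 controls. It had 3447 and 4244 CPM in KPP tumour libraries, against 1869 and 1472 CPM in KPP controls. Tumour libraries lay above their controls in 4 models and overlapped them in C26. The change was 0.97 ± 0.25 in LLC (edgeR adjusted p = 0.0221), 0.94 ± 0.25 in KPC (edgeR adjusted p = 0.0138) and 1.2 ± 0.25 in KPP (edgeR adjusted p = 0.00256). It was 0.47 ± 0.25 in KPCML1 and 0.31 ± 0.25 in C26, neither of which passed. The LLC call ended without LLC_control replicate 1, LLC_tumor replicate 1 or LLC_tumor replicate 2 (edgeR adjusted p 0.217, 0.0527 and 0.147). The KPC call ended without Matrigel_control replicate 2 or KPC_tumor replicate 2 (edgeR adjusted p 0.116 and 0.107).

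Ryr1 transcripts come with and without a 15-base exon (chromosome 7, 29056234 to 29056248), and the exon is shown in capitals on the coding strand, after the 24 bases before it, since the share of the transcript that holds it is given next.
Ryr1 with the exon: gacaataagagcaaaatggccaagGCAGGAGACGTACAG
Of the TPM of the full-length transcripts with and without the exon, the one with it took 43.0 and 38.7% in LLC tumour libraries, against 35.3 and 26.8% in LLC controls. It took 56.7 and 41.4% in KPCML1 and 46.1 and 48.5% in KPC tumour libraries, against 43.8 and 29.3% in Matrigel controls. It took 41.9 and 18.6% in C26 tumour libraries, against 23.1 and 22.9% in C26 controls, and 29.9 and 30.5% in KPP tumour libraries, against 29.3 and 35.0% in KPP controls. The share was above the controls in LLC and KPC and overlapped them in the other 3 models, and it was not tested.

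Cacna1s, the pore and voltage sensor of the dihydropyridine receptor (chromosome 1, 136052750 to 136119822, plus strand), ranged from 328 to 1081 CPM over all libraries. The LLC tumour libraries, with 1074 and 1081 CPM, lay above the LLC controls, with 745 and 854 CPM. The C26 tumour libraries, with 714 and 328 CPM, lay below the C26 controls, with 892 and 813 CPM, and the groups overlapped in the other 3 models. The change in C26 was -0.71 ± 0.29 (edgeR adjusted p = 0.102), and the changes in the other models lay between -0.21 and 0.43. Without C26_tumor replicate 1 the C26 value was -1.40 and passed (edgeR adjusted p = 0.00288), and without C26_tumor replicate 2 it was -0.24 (edgeR adjusted p = 0.64). It also passed by DESeq2 (adjusted p = 0.0422) and with no filter on low counts (edgeR adjusted p = 0.0133).

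Jph1, a junctophilin that ties the reticulum to the transverse tubule (chromosome 1, 16964560 to 17097889, minus strand), had 159 and 172 CPM in C26 tumour libraries, against 329 and 329 CPM in C26 controls. The C26 tumour libraries were the lowest of all 18. The change was -0.99 ± 0.17 in C26 (edgeR adjusted p = 0.0014), and it was called with each of the 4 C26 libraries left out in turn. In LLC, KPCML1 and KPP it was -0.36, -0.27 and -0.20, and in KPC 0.16, and none of these 4 passed. By CPM, Jph1 libraries did not overlap in LLC, KPCML1, C26 or KPP, with the tumour group lower in each. They overlapped in KPC (396 and 445 CPM in KPC tumour libraries, against 403 and 348 CPM in Matrigel controls). By TPM the groups overlapped in LLC, KPCML1, KPC and KPP. Only C26 tumour libraries, with 49.2 and 69.3 TPM, then lay below their controls, with 90.6 and 72.4 TPM.

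Of the pump genes, Atp2a1 rose in KPC and KPP and Atp2a2 in LLC and C26. Atp2a1 encodes SERCA1, the pump of fast fibres, and lies on chromosome 7 (126445858 to 126463108, minus strand). It had 22262 and 27959 CPM in LLC tumour libraries, against 15391 and 19148 CPM in LLC controls. It had 38627 and 31721 CPM in KPCML1 and 39839 and 42869 CPM in KPC tumour libraries, against 24519 and 19424 CPM in Matrigel controls. These 3 tumour groups lay above their controls. It had 29444 and 22539 CPM in C26 tumour libraries, against 26640 and 20801 CPM in C26 controls, and here the groups overlapped. It had 32758 and 31938 CPM in KPP tumour libraries, above the 17679 and 20082 CPM of KPP controls.

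Atp2a1 rose by 0.91 ± 0.23 in KPC (edgeR adjusted p = 0.0108) and by 0.78 ± 0.23 in KPP (edgeR adjusted p = 0.0187). The values of 0.54 ± 0.23 in LLC, 0.68 ± 0.23 in KPCML1 and 0.13 ± 0.23 in C26 did not pass. The share of fragments from mitochondrially encoded genes is given beside these values. That share was 16.8 and 12% in LLC, 11.1 and 9% in KPCML1, 13.6 and 15.2% in KPC, 11 and 5.91% in C26 and 11.8 and 10.3% in KPP tumour libraries. It was 21.5 and 20.4% in LLC, 17.5 and 20.1% in Matrigel, 14.5 and 21.3% in C26 and 17.4 and 22.3% in KPP controls. Every tumour library lay below its controls, and the part of this share in the pump values was not tested. The KPC call ended without Matrigel_control replicate 2 (edgeR adjusted p = 0.102) or KPC_tumor replicate 2 (edgeR adjusted p = 0.0613). The KPP call ended without KPP_control replicate 1 (edgeR adjusted p = 0.119) or KPP_tumor replicate 1 (edgeR adjusted p = 0.0614), and with the libraries of that experiment alone (edgeR adjusted p = 0.191).

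The end of the Atp2a1 protein depends on a 42-base exon (chromosome 7, 126446545 to 126446586, build mm10). With the exon the protein ends as SERCA1a, the adult form, and without it as SERCA1b, the form of newborn muscle. The coding ends are shown since the transcripts with these ends took different shares in KPP. They are from GENCODE M21 transcripts, 5′ to 3′, and the capitals mark the coding bases after the last shared splice junction, with the stop codon.
Atp2a1 with the exon: tcattgctcggaactatctggaggGATAA
Atp2a1 without the exon: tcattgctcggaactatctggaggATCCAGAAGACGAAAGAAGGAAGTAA

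The transcript without the exon took 2.89 and 3.20% of the Atp2a1 TPM in KPP tumour libraries, against 0.312 and 0.482% in KPP controls. Over the other 16 libraries it took 0.227 to 0.959%, so the KPP tumour libraries stood above all others. Behind the KPP tumour values stood 3307 and 4801 estimated fragments of that transcript, against 216 and 261 in KPP controls. The share was not tested. It is annotated as a partial transcript of 681 bases, so fragments from its shared part were divided by estimation. Rabep2 overlaps the end of Atp2a1 on the opposite strand, and the strand setting is not given. Rabep2 had 8.44 and 6.55 TPM in KPP tumour libraries, against 5.29 and 3.42 TPM in KPP controls.

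**Figure D3:**
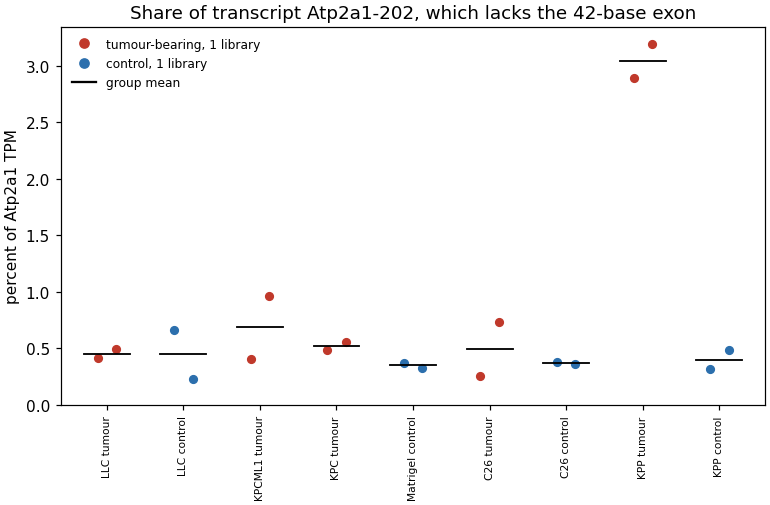
Percent of the Atp2a1 TPM in the transcript that lacks the 42-base exon, by library, with points for libraries and a line for the group mean, tumour groups in red and controls in blue. The KPP tumour libraries, with 2.89 and 3.20%, lie above the other 16, which reach 0.959%.

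Atp2a2 encodes SERCA2, the pump of slow fibres and heart (chromosome 5, 122453513 to 122502225, minus strand). It had 42 and 50.1 CPM in LLC tumour libraries, against 20.8 and 18.2 CPM in LLC controls, and 52.0 and 60.3 CPM in C26 tumour libraries, against 34.6 and 32.0 CPM in C26 controls. It had 49.9 and 30.9 CPM in KPC and 31.9 and 22.0 CPM in KPCML1 tumour libraries, against 30.3 and 22.8 CPM in Matrigel controls. It had 18 and 16.3 CPM in KPP tumour libraries, against 26.5 and 18.4 CPM in KPP controls. Tumour libraries lay above their controls in LLC, KPC and C26, below them in KPP, and overlapped them in KPCML1.

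Atp2a2 rose by 1.24 ± 0.26 in LLC (edgeR adjusted p = 0.00663) and by 0.75 ± 0.25 in C26 (edgeR adjusted p = 0.0465), and the KPP value was -0.39 ± 0.26 and did not pass. The LLC call ended without LLC_control replicate 1, LLC_control replicate 2 or LLC_tumor replicate 2 (edgeR adjusted p 0.0523, 0.0677 and 0.0676). The C26 call ended with each C26 library left out (edgeR adjusted p 0.073 to 0.237), with relative log expression size factors (edgeR adjusted p = 0.0587) and with length-scaled counts (edgeR adjusted p = 0.0768). The transcript of 1044 codons, with the longer SERCA2b end, took 25.1 to 61.8% of its TPM summed with the transcript of 998 codons, which has the SERCA2a end of muscle.

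Sln encodes sarcolipin, a small membrane protein that inhibits the pump, and had low counts of 8 to 1957 per library (chromosome 9, 53850164 to 53854560, plus strand). It had 9.16 and 59.3 CPM in KPP tumour libraries, against 0.283 and 1.75 CPM in KPP controls, and 2.38 and 5.00 CPM in C26 tumour libraries, against 0.540 and 0.478 CPM in C26 controls. It had 1.79 and 1.75 CPM in LLC tumour libraries, against 1.06 and 0.376 CPM in LLC controls. It had 2.81 and 2.32 CPM in KPCML1 and 4.42 and 2.52 CPM in KPC tumour libraries, against 0.811 and 0.648 CPM in Matrigel controls. Tumour libraries lay above their controls in all 5 models, with KPP_tumor replicate 2 far above the others.

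Sln rose by 5.15 ± 0.86 in KPP (edgeR adjusted p = 0.000607) and by 2.85 ± 0.86 in C26 (edgeR adjusted p = 0.03). The values of 1.31 ± 0.86 in LLC, 1.81 ± 0.82 in KPCML1 and 2.25 ± 0.82 in KPC (edgeR adjusted p = 0.0533) did not pass. In KPC, Sln passed by DESeq2 (adjusted p = 0.0413), with relative log expression size factors (edgeR adjusted p = 0.049), with no filter (edgeR adjusted p = 1.71e-08) and with the replicate block (edgeR adjusted p = 0.00481), and in KPCML1 with the block (edgeR adjusted p = 0.0316). The KPP value was 3.31 without KPP_tumor replicate 2 and stayed called. The C26 call ended without either C26 control or C26_tumor replicate 2 (edgeR adjusted p 0.134 to 0.2). Sarcolipin is a gene of heart atria and slow fibres as well. Of 5 heart markers, 3 passed the low-count filter. The summed CPM of these 3 was 13.4 to 21.0 in KPP tumour libraries, against 2.12 to 8.34 in KPP controls. In C26 tumour libraries it was 13.1 to 17.3, against 5.93 to 9.69 in C26 controls. Of the KPP sum, Tnnt2, a troponin also made in immature fibres, held 10.7 and 19.8 CPM in KPP tumour libraries, against 1.84 and 5.39 CPM in KPP controls. The atrial marker Nppa was at 0.0826 and 0.121 CPM in KPP tumour libraries, against 0 and 0.0999 CPM in KPP controls. The summed CPM of the slow myofibre markers was 36.2 to 66.2 in KPP tumour libraries, against 54.6 to 136 in KPP controls, and 39.9 to 133 in C26 tumour libraries, against 84.9 to 142 in C26 controls. In KPP controls most of that sum was Myl3, a myosin light chain gene, which had 23.8 and 6.33 CPM in KPP tumour libraries, against 46.6 and 103 CPM in KPP controls, and a change of -2.32 in KPP (edgeR adjusted p = 0.0298). Of the other slow markers, Myh7, Tnnt1, Tnni1, Tnnc1 and Myh7b had values of 1.21 to 1.68 and Myl2 one of -0.53 in KPP, none of which passed, and the median of the 7 was 1.21. The part of these markers in the Sln values was not tested.

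Of the store protein genes, Casq1 fell in all 5 models and Casq2 was not called by the main edgeR fit. The difference between them was not tested. Casq1 (chromosome 1, 172209894 to 172219868, minus strand) had 795 and 730 CPM in LLC tumour libraries, against 2407 and 2188 CPM in LLC controls. It had 971 and 739 CPM in KPCML1 and 641 and 643 CPM in KPC tumour libraries, against 2270 and 2153 CPM in Matrigel controls. In these 3 models every tumour library lay below its controls. It had 255 and 116 CPM in C26 tumour libraries, against 2164 and 1870 CPM in C26 controls. It had 260 and 292 CPM in KPP tumour libraries, against 1841 and 2105 CPM in KPP controls. C26 and KPP tumour libraries were thus also below those of the other 3 tumour groups.

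Casq1 fell by 3.44 ± 0.30 in C26 (edgeR adjusted p = 2.31e-05) and by 2.84 ± 0.29 in KPP (edgeR adjusted p = 4.42e-05). It fell by 1.78 ± 0.28 in KPC (edgeR adjusted p = 0.000763), by 1.59 ± 0.28 in LLC (edgeR adjusted p = 0.00258) and by 1.37 ± 0.28 in KPCML1 (edgeR adjusted p = 0.00984). The 5 effects differed from each other by the joint test (edgeR adjusted p = 0.021), which did not pass without C26_control replicate 1 (edgeR adjusted p = 0.0575). The KPCML1 call ended without Matrigel_control replicate 1, Matrigel_control replicate 2 or KPCML1_tumor replicate 2 (edgeR adjusted p 0.0515, 0.0617 and 0.139), and the other 4 calls were kept under all alternatives run.

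Casq2 (chromosome 3, 102086415 to 102146514, plus strand) ranged from 17.4 to 77.7 CPM. Its 2 Matrigel controls, at 17.4 and 47.8 CPM, enclosed both KPC tumour libraries, at 37.2 and 24 CPM, and overlapped the KPCML1 tumour libraries, at 26.8 and 51.1 CPM. It had 32.3 and 31.4 CPM in LLC tumour libraries, against 77.7 and 51.8 CPM in LLC controls, and 20.8 and 24.1 CPM in C26 tumour libraries, against 33.4 and 34.1 CPM in C26 controls. It had 44.4 and 54.9 CPM in KPP tumour libraries, against 25.8 and 40.9 CPM in KPP controls. The tumour group was lower in LLC and C26 and higher in KPP. The changes were -1.02 ± 0.41 in LLC (edgeR adjusted p = 0.116), -0.59 ± 0.41 in C26 and 0.58 ± 0.41 in KPP (edgeR adjusted p = 0.279). With no filter on low counts these 3 passed (edgeR adjusted p 0.000324, 0.0443 and 0.0272), and with the libraries of 1 experiment alone LLC and C26 passed (edgeR adjusted p 0.00566 and 0.0357).

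The ratio of fast to slow gene, taken on TPM within a library, went one way for the store and 2 ways for the pump. Atp2a1 over Atp2a2 was 639 and 680 in LLC tumour libraries, against 978 and 1336 in LLC controls, and 685 and 459 in C26 tumour libraries, against 944 and 803 in C26 controls. It was 1509 and 1811 in KPCML1 and 968 and 1775 in KPC tumour libraries, against 992 and 1071 in Matrigel controls, and 2242 and 2625 in KPP tumour libraries, against 830 and 1350 in KPP controls. The ratio was lower in LLC and C26, higher in KPCML1 and KPP, and overlapped in KPC. On the log2 scale the difference of means was -0.79 in LLC, 0.68 in KPCML1, 0.35 in KPC, -0.64 in C26 and 1.2 in KPP. Without KPC_tumor replicate 2 the KPC difference was -0.09, and without C26_tumor replicate 2 the C26 difference was -0.35.

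Casq1 over Casq2 was 24.6 and 27.7 in LLC tumour libraries, against 37.2 and 49.8 in LLC controls, and 18 and 4.93 in C26 tumour libraries, against 82.0 and 79.2 in C26 controls. It was 42.1 and 18.6 in KPCML1 and 18.9 and 31.7 in KPC tumour libraries, against 160 and 49.3 in Matrigel controls. It was 7.77 and 6.58 in KPP tumour libraries, against 75.6 and 55.2 in KPP controls. Tumour libraries lay below their controls in all 5 models. On the log2 scale the difference was -0.72 in LLC, -1.67 in KPCML1, -1.86 in KPC, -3.10 in C26 and -3.18 in KPP. With Matrigel_control replicate 1 left out it was -0.82 in KPCML1 and -1.01 in KPC, and in KPCML1 it was -2.52 without Matrigel_control replicate 2 and -1.08 without KPCML1_tumor replicate 2. The spread in Matrigel controls was wide, with an SD of 1.2 on the log2 scale (n = 2). These ratios were not tested, since an exact permutation test of 2 libraries against 2 gives no two-sided p below 0.333.

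**Figure D4:**
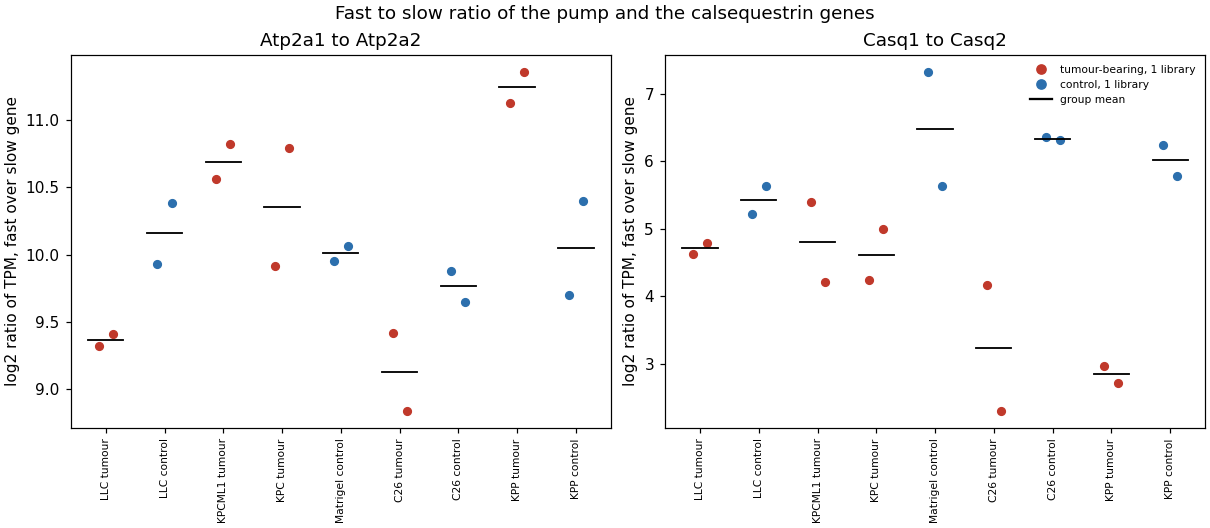
Log2 ratio of TPM of the fast over the slow gene in every library, for the pumps on the left and the calsequestrins on the right, with points for libraries and a line for the group mean. The pump ratio lies lower in LLC and C26 and higher in KPCML1 and KPP tumour libraries than in controls, and the calsequestrin ratio lies lower in all 5, down to 2.30 in C26.

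Pvalb encodes parvalbumin and lies on chromosome 15 (78191114 to 78206400, minus strand). It had 2159 and 449 CPM in C26 tumour libraries, against 8460 and 9162 CPM in C26 controls, and 2460 and 749 CPM in KPP tumour libraries, against 8558 and 11459 CPM in KPP controls. It had 5191 and 4454 CPM in LLC tumour libraries, against 8878 and 9485 CPM in LLC controls. It had 5805 and 5105 CPM in KPCML1 and 4332 and 5566 CPM in KPC tumour libraries, against 9730 and 8078 CPM in Matrigel controls. Tumour libraries lay below their controls in all 5 models, and in C26 and KPP the tumour libraries also differed widely between themselves.

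Pvalb fell by 2.76 ± 0.59 in C26 (edgeR adjusted p = 0.00545) and by 2.64 ± 0.59 in KPP (edgeR adjusted p = 0.00355). The C26 value was -4.32 without C26_tumor replicate 1. The values of -0.93 ± 0.56 in LLC, -0.71 ± 0.56 in KPCML1 and -0.85 ± 0.56 in KPC did not pass in the fit that shares its spread over all groups. With the libraries of that experiment alone LLC (edgeR adjusted p = 0.00509) and KPC (edgeR adjusted p = 0.0285) passed, and with no filter on low counts all 3 passed (edgeR adjusted p 0.00531, 0.0495 and 0.0067).

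The promoters of Casq1 and Pvalb are shown because these are the genes of the 10 whose tumour libraries were lower in every model. They are the 250 bases before the start site from RefSeq (GRCm38.p6), on the strand of the gene, for Casq1 chr1:172219896-172220145 and for Pvalb chr15:78206401-78206650, and the capitals mark matches to the E-box CANNTG, the motif of myogenic factors.
Casq1: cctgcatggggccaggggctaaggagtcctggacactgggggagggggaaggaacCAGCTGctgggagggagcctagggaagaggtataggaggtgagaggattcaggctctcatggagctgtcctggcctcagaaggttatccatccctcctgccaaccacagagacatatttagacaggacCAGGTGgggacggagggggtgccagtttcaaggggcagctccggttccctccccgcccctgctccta
Pvalb: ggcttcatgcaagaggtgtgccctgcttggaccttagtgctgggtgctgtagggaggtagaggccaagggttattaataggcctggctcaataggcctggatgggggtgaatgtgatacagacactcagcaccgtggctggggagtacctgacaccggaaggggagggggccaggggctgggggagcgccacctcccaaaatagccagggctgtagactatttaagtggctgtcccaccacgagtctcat
Both strands were searched for CANNTG, for a MEF2-like motif (CTA and TAG with 4 free bases between them) and for the FoxO motif GTAAACA. Casq1 held 2 E-boxes, where 66.2% of 32851 RefSeq promoters held at least 1. This Pvalb window held no match to any of the 3 patterns as written. Forms of the MEF2 motif that begin with T or end in A were not searched. No match to the pattern used is therefore not the absence of a MEF2 motif. The MEF2-like motif stood in 3.2% and the FoxO motif in 3.17% of all promoters. Windows were at hand for 6 of the 10 genes, and among them Casq2 and Cacna1s held 2 E-boxes each and Atp2a1 held 1, Ryr1 held none, and the window of a second Pvalb start site held 1. These are matches of letters and not measured sites.

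Dhrs7c, a dehydrogenase and reductase of the reticulum membrane also called SRP-35, lies on chromosome 11 (67798187 to 67816002, plus strand). It had 36.0 and 26.3 CPM in LLC tumour libraries, against 232 and 194 CPM in LLC controls, and 92.8 and 72.7 CPM in C26 tumour libraries, against 205 and 192 CPM in C26 controls. It had 151 and 182 CPM in KPCML1 and 133 and 94.7 CPM in KPC tumour libraries, against 156 and 159 CPM in Matrigel controls. It had 89.6 and 109 CPM in KPP tumour libraries, against 138 and 159 CPM in KPP controls. The LLC tumour libraries were the lowest of all 18, and tumour libraries lay below their controls in every model but KPCML1, where they overlapped.

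Dhrs7c fell by 2.78 ± 0.23 in LLC (edgeR adjusted p = 3.81e-05), by 1.27 ± 0.21 in C26 (edgeR adjusted p = 0.00136) and by 0.58 ± 0.21 in KPP (edgeR adjusted p = 0.045). The values of -0.47 ± 0.21 in KPC and 0.08 ± 0.21 in KPCML1 did not pass. The KPP call ended with each of the 4 KPP libraries left out (edgeR adjusted p 0.0691 to 0.215), and with relative log expression size factors, no filter, the replicate block or the KPP libraries alone (edgeR adjusted p 0.0516, 0.0711, 0.058 and 0.122). The LLC effect was lower than that of each other model, with a difference of -2.86 ± 0.30 to KPCML1 (edgeR adjusted p = 0.0015), -2.31 ± 0.30 to KPC (edgeR adjusted p = 0.00361), -1.51 ± 0.30 to C26 (edgeR adjusted p = 0.048) and -2.2 ± 0.30 to KPP (edgeR adjusted p = 0.00332). The difference to C26 stayed called in 4 of 18 fits with 1 library left out (edgeR adjusted p 0.0346 to 0.237), and the other 3 differences in all 18. It also ended with the replicate block (edgeR adjusted p = 0.108) and with length-scaled counts (edgeR adjusted p = 0.0722).

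By the joint test, 4 of the 10 genes differed among the 5 models, where 8.32% of all genes were called, and these were Dhrs7c, Casq1, Atp2a2 and Jph1. Of the 10 pairs of models tested per gene, Atp2a2 had a higher effect in LLC than in KPP, by 1.64 ± 0.36 (edgeR adjusted p = 0.0183), where 8.29% of all genes were called. Jph1 had a higher effect in KPC than in C26, by 1.16 ± 0.24 (edgeR adjusted p = 0.0397), where 0.87% of all genes were called. For the 4 Dhrs7c pairs, 0.18% of all genes were called between LLC and KPCML1, 1.84% between LLC and KPC, and 0.466% between LLC and C26. The Atp2a2 call ended without LLC_control replicate 1, LLC_control replicate 2, LLC_tumor replicate 2 or KPP_control replicate 1 (edgeR adjusted p 0.0663, 0.074, 0.0775 and 0.0963), and the Jph1 call was kept in 6 of 18 fits with 1 library left out (edgeR adjusted p 0.0193 to 0.172) and ended with the replicate block (edgeR adjusted p = 0.136) and with length-scaled counts (edgeR adjusted p = 0.0558). The other differences of the 10 genes did not pass, the nearest being Casq1 between KPCML1 and KPP (1.47 ± 0.39, edgeR adjusted p = 0.053).

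Partners of these genes were described by lists. Over the mean of the 5 tumour effects, 25.2% of all tested genes were called higher and 25.7% lower. Of 20 triad and release channel partners, 2 rose and 9 fell. Jph2, the other junctophilin of muscle, fell by 1.55 ± 0.12 (edgeR adjusted p = 5.29e-07), and Sypl2 (mitsugumin 29), a protein of the triad membrane, fell by 1.93 ± 0.14 (edgeR adjusted p = 2.84e-07) and was called in all 5 models. Itpr1, the inositol trisphosphate receptor, fell by 1.08 ± 0.10 (edgeR adjusted p = 1.56e-06), and by 0.51 with length-scaled counts. Tmem38b, a potassium channel of the reticulum, rose by 0.99 ± 0.10 (edgeR adjusted p = 4.24e-06).

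Of 9 tested pump regulators and store proteins, 1 rose and 6 fell. Calr (calreticulin), a calcium-binding chaperone, rose by 0.71 ± 0.11 (edgeR adjusted p = 9.66e-05). Srl (sarcalumenin) fell by 0.76 ± 0.12 (edgeR adjusted p = 0.000134), and Hrc, the histidine-rich store protein, fell by 0.45 ± 0.09 (edgeR adjusted p = 0.000862). Calu (calumenin) fell by 0.42 ± 0.07 (edgeR adjusted p = 0.000323). The summed CPM of this list was 1504 to 1617 in LLC tumour libraries, against 2757 to 2865 in LLC controls.

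Of 8 genes of store-operated entry, 2 rose and 4 fell, where 25.2% of all genes were called higher and 25.7% lower. The count that rose is near the share over all genes. Stim1, the calcium sensor of the store, fell by 0.47 ± 0.08 (edgeR adjusted p = 0.000396), and Orai1, the channel it opens, fell by 0.71 ± 0.09 (edgeR adjusted p = 2.33e-05). Saraf, which turns that entry off, rose by 0.62 ± 0.09 (edgeR adjusted p = 9.73e-05).

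Of 6 tested extrusion genes of the surface membrane, 1 rose and 5 fell. The sodium and calcium exchanger gene Slc8a3 fell by 1.36 ± 0.19 (edgeR adjusted p = 4.32e-05) while Slc8a1 rose by 0.63 ± 0.13 (edgeR adjusted p = 0.00127). The surface pump gene Atp2b2 fell by 1.63 ± 0.40 (edgeR adjusted p = 0.00363). Atp2b4 fell by 0.69 ± 0.16 (edgeR adjusted p = 0.00252), and its call ended with length-scaled counts (edgeR adjusted p = 0.536).

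Of 10 genes of mitochondrial calcium uptake, 3 fell by small amounts, a count near the 25.7% of all genes called lower. Vdac1, the outer membrane channel, fell by 0.36 ± 0.09 (edgeR adjusted p = 0.00471) and Mcu, the uniporter, by 0.31 ± 0.10 (edgeR adjusted p = 0.0162), a call that ended without Matrigel_control replicate 2 (edgeR adjusted p = 0.083). Micu3, a regulator of the uniporter, fell by 0.32 ± 0.12 (edgeR adjusted p = 0.0415), kept its call in 6 of 18 fits with 1 library left out, and ended with the replicate block (edgeR adjusted p = 0.0942).

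Of 18 calmodulin, calcineurin and CaM kinase genes, 11 fell. Camk2a, a calmodulin-dependent kinase, fell by 1.26 ± 0.10 (edgeR adjusted p = 4.88e-07) and was called in all 5 models, as was Rcan2, a calcineurin regulator (-1.21 ± 0.12, edgeR adjusted p = 3.33e-06). The calmodulin genes Calm2 (-1.27 ± 0.12, edgeR adjusted p = 2.65e-06) and Calm3 (-0.95 ± 0.12, edgeR adjusted p = 1.68e-05) fell as well. The summed CPM of the list was 1265 to 1398 in KPP tumour libraries, against 2340 to 2583 in KPP controls.

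**Figure D5:**
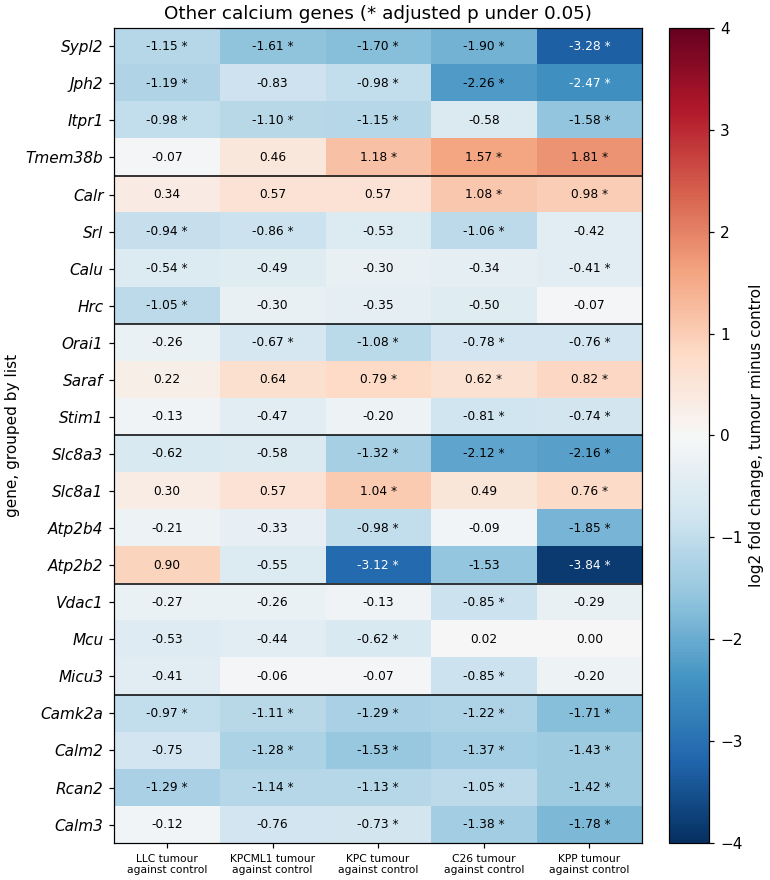
Log2 fold change, tumour minus control, of the other calcium genes named in the text in the 5 models, in rows grouped by list in the order of the text, with red for higher and blue for lower in tumour libraries and an asterisk for an adjusted p under 0.05. Sypl2, Camk2a and Rcan2 are marked lower in all 5 models, and Tmem38b is marked higher in KPC, C26 and KPP.

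Markers of fibre types and of other cells were described by lists as well. For the mean effect, 25.2% of all tested genes were called higher and 25.7% lower. Of 8 fast myofibre markers 1 rose and 3 fell over the mean of the models, among them the light chain gene Myl1 (-1.97 ± 0.16, edgeR adjusted p = 6.13e-07). Of 7 slow myofibre markers 4 rose and 1 fell, with Myh7, the slow myosin, at 2.2 ± 0.70 (edgeR adjusted p = 0.0176), a call that ended without either Matrigel control or KPC_tumor replicate 1 (edgeR adjusted p 0.0534 to 0.0758) and with the replicate block (edgeR adjusted p = 0.0818). Of 4 immature fibre markers 2 rose. Myog, a myogenic factor, rose by 2.70 ± 0.44 (edgeR adjusted p = 0.000168) and Myh8 by 0.60 ± 0.20 (edgeR adjusted p = 0.0234). Myh3, at 0.07, and Chrng, at -1.48, did not pass. The median of the 4 was 0.195 in LLC, -0.69 in KPCML1, -0.75 in KPC, 1.36 in C26 and 1.56 in KPP. In KPP all 4 endothelial markers fell, where 19.3% of all genes were called lower. The summed CPM of the 4 was 56.8 to 69.1 in KPP tumour libraries, against 180 to 183 in KPP controls. All 6 erythroid markers rose over the mean of the models, but none of them was called in C26 or KPP. Their summed CPM was 2969 to 6832 in KPCML1 tumour libraries, against 358 to 399 in Matrigel controls. In C26 tumour libraries it was 146.5 to 287.8, against 293.9 to 315.3 in C26 controls. Of 5 smooth muscle markers 3 fell, of 3 tested heart markers 1 rose and of 5 macrophage markers 1 rose. The heart and macrophage counts are near the share over all genes. The part of these markers in the values of the 10 genes was not tested.

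The genes whose pattern over the 18 libraries lay nearest to a calcium gene were found by the mean absolute difference of log2 CPM, each gene centred on its own mean. Nearest to Casq1 were Fam131a (0.155), the fast myosin light chain gene Myl1 (0.276) and the glycerol phosphate dehydrogenase gene Gpd1 (0.286), where Casq1 itself deviated from its mean by 1.11 on average. Nearest to Pvalb were Phkg1, the phosphorylase kinase subunit of muscle (0.246), Sh3bgr (0.249) and Jph2 (0.302), with a deviation of Pvalb of 0.93. Nearest to Dhrs7c were Apobec2 (0.25), Pfkfb1 (0.293) and Cd24a (0.307), with a deviation of 0.642. For Sln, with a deviation of 1.28, the nearest gene lay at 0.474. Nearest to Ryr1 was Mypn, which encodes the sarcomere protein myopalladin (0.149), and nearest to Atp2a1 was Synpo (0.159), with deviations of 0.427 and 0.363. The nearest genes were Ssh3 for Atp2a2 (0.243), Commd3 for Casq2 (0.27), Cog6 for Cacna1s (0.15) and Clic5 for Jph1 (0.157), whose own deviations were 0.491, 0.446, 0.263 and 0.292.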

How the data were processed

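RNA of TA muscle was quantified in 18 libraries of 9 groups. Per the labels, libraries were poly(A) selected with a directional kit. Per the submitters' processing notes, reads went through bcl2fastq (2.20), FastQC, Salmon and DESeq2 with build mm10. Salmon's version, strand setting and transcript release are named neither in the labels nor in the file headers. The deposited library files hold estimated counts, not normalised, and TPM for 140825 transcripts. The authors also deposited tables of their own comparisons, with a mean normalised signal, log2 fold change and its standard error, p-value and adjusted p-value per gene, from which no value is printed here.

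Transcripts were matched to GENCODE M21 without version numbers (139881 matched, 944 did not). Transcript values were added up within each gene, estimated counts were rounded to whole numbers, and filterByExpr of edgeR (4.0.16; minimum count 10, minimum total 15) kept 16089 genes. Libraries were scaled by TMM and fitted with edgeR's quasi-likelihood method as 9 groups with 9 residual degrees of freedom. Tested were 5 tumour groups against their controls, their mean, their joint difference and 10 pairs of effects, with Benjamini-Hochberg adjustment over all genes at 0.05. Ratios used TPM summed per gene and had no test. The alternatives were relative log expression size factors, DESeq2 (1.42.0), no filter, length-scaled counts, a replicate block, each experiment alone and each library left out, and for ratios CPM, a pseudocount of 1 and, added after the data were seen, protein-coding transcripts only. Named were all 10 genes, up to 4 called genes of smallest p of each list by the mean effect, and the 3 genes nearest to each of the 10, and 1 gene that this rule names is not reported here. The 10 genes and the lists were chosen with earlier results of these data known. The method was tested on simulated data. The work ran in R 4.3.3 and in Python 3.11.15 (pandas 2.3.3, with plots by matplotlib 3.10.9).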

Additional observations from a re-analysis of the deposited data

Results flagged for a closer look

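For 4 of the 10 genes the tumour effects differed among the 5 models by edgeR's joint test. The adjusted p was 0.00431 for Dhrs7c, whose effect was -2.78 in LLC, 0.08 in KPCML1, -0.47 in KPC, -1.27 in C26 and -0.58 in KPP, and it was called in all fits run. It was 0.021 for Casq1, whose effects were -1.59, -1.37, -1.78, -3.44 and -2.84 in the same order. It was 0.0412 for Atp2a2, with 1.24, 0.02, 0.60, 0.75 and -0.39, and this call was kept in 6 of 18 fits with 1 library left out. It was 0.0433 for Jph1, with -0.36, -0.27, 0.16, -0.99 and -0.20, and this call was kept in 4 of 18 fits with 1 library left out.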

How the results depend on the processing

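The number of the 10 genes called was most often unlike the main count with no filter on low counts, where it was 7 in LLC, 3 in KPCML1, 6 in KPC, 8 in the joint test and 28 over the pairs of models. With DESeq2 it was 2 in KPCML1 and 16 over the pairs, with length-scaled counts 2 in the joint test, with the replicate block 2 in KPCML1, and with the libraries of 1 experiment alone 2 in KPCML1 and 5 in KPC. With each library left out in turn it ran from 2 to 3 in LLC, 0 to 1 in KPCML1, 1 to 4 in KPC, 4 to 6 in C26, 4 to 5 in KPP, 7 to 8 for the mean effect, 1 to 5 in the joint test and 3 to 16 over the pairs. The joint count was 1 without C26_control replicate 1, and the pair count 16 without C26_tumor replicate 1. The cause of these moves was not tested. The correlation of same-numbered deviations ran from -0.174 in KPP to 0.0932 in KPCML1. Whether the replicate numbers pair the libraries was not tested. With the replicate block the counts were 4 in LLC, 4 in KPC, 6 in C26, 5 in KPP, 8 for the mean effect, 4 in the joint test and 6 over the pairs, but the pairs were not all the same, since Dhrs7c between LLC and C26 and Jph1 between KPC and C26 were lost.

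Signs turned in values that had not passed. With length-scaled counts these were Dhrs7c in KPCML1 (-0.026), Cacna1s in KPP (0.0069) and Cacna1s for the mean effect (0.058), and with the replicate block Casq2 in KPC (0.11). With 1 library left out Casq2 ran from -0.30 to 1.16 in KPCML1, -0.64 to 0.81 in KPC and -0.39 to 0.19 for the mean effect. Cacna1s ran from -0.19 to 0.27 in KPCML1, -0.038 to 0.32 in KPC and -0.16 to 0.050 for the mean effect. Atp2a2 ran from -0.28 to 0.26 in KPCML1, Dhrs7c from -0.056 to 0.21 in KPCML1 and Atp2a1 from -0.10 to 0.32 in C26. The log2 ratio of Atp2a1 over Atp2a2 ran from -0.092 to 0.78 in KPC. The log2 ratio of Casq1 over Casq2 in KPP was -3.44 on CPM, -3.51 on protein-coding transcripts and -3.40 to -2.95 with 1 library left out. With 1 library left out it ran from -2.52 to -0.82 in KPCML1, -2.71 to -1.01 in KPC, -4.03 to -2.17 in C26 and -0.93 to -0.51 in LLC.

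Each group has 2 libraries, which limits the precision of every value, and Sln had the lowest counts, with as few as 8 in a library.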
